A study of Mus musculus with 4 samples.

Results

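Among the 31053 genes listed in the count tables, 9 complement genes were chosen by symbol and are described here. They are the protease C1ra, the components C2, C4b and C3, the regulators Serping1, Cd55 and Cd59a, and the receptors C3ar1 and C5ar1. All 9 carried counts in every library. The hippocampi came from C57BL/6 mice, given as 12 weeks old in the labels. In the 2VO group both common carotid arteries were clamped for 50 min, and in the sham group the clamps were taken off at once. Tissue was collected on day 7, without sorting, and 1 mouse gave 1 library. Of the 4 libraries named in the labels, 2VO 2 was not analysed here, which left 2 sham libraries and 1 2VO library.

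Complement is a cascade of serum proteases that marks and lyses cells. In the classical pathway C1q with its proteases C1r and C1s cleaves C4 and C2, whose fragments form the enzyme that cleaves C3. The fragments C3a and C5a act on the receptors C3ar1 and C5ar1, while Serping1, Cd55 and Cd59a stop the cascade at successive steps. In the brain, microglia are the main source of C1q, C4 transcripts are known from reactive astrocytes and oligodendrocytes, and C3 from reactive glia.

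The libraries differed in depth in the same direction as the groups. Sham 1 held 65287386 unique molecular identifiers (UMIs, each standing for 1 transcript molecule read at its 3′ end), sham 2 held 40459614 and 2VO 1 held 18754480. Barcodes with at least 650 genes were kept, which left 5109, 5126 and 3912 cells with medians of 8191, 5249 and 2311 UMIs. Mitochondrial genes took 3.38%, 4.09% and 5.89% of the UMIs, in the same order. Between 7 and 10 barcodes of kept cells were shared by any pair of libraries. Cells were grouped into 28 clusters without using any complement gene, and the clusters were named from markers. The classes tested were oligodendrocytes (OLGs), committed oligodendrocyte precursors, oligodendrocyte precursors (OPCs), astrocytes (ASTs), immature neurons (NPCs), glutamatergic neurons (GLUTNs), Cajal-Retzius neurons, microglia, macrophages, endothelial cells (ECs), pericytes (PERs), smooth muscle cells (VSMCs), leptomeningeal fibroblasts (VLMCs) and choroid plexus epithelium (CPECs). Ependymal cells (EPNs), with 9 cells in the 2VO library, were described without a test.

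Of the members, C4b, the form of complement C4 that starts the cleavage of C3, stood higher in the 2VO library than in both sham libraries in 14 of 14 classes (in GLUTNs on 1 UMI per library), and it passed the test in 7. The share of all genes above both sham libraries was not counted, and the classes come from the same mice. Cd59a, which blocks the membrane attack complex, passed in OPCs. C3, the central component, was nearly absent outside EPNs, and the receptors had their highest levels in microglia and macrophages. UMIs were summed per library and class, and 2VO was compared with sham by edgeR's quasi-likelihood test with Benjamini-Hochberg adjustment within the class (written below as edgeR adjusted p). Genes with an adjusted p under 0.05 whose fold exceeded 1.5 were called. Since the 2VO group held a single library, it was assumed to vary like the sham group, which gave 1 residual degree of freedom. Levels are normalised CPM (counts of a gene per 1000000 counts of its class and library, scaled by TMM), and raw CPM are the same without that scaling. Over the 9 members, 41 tests in 14 classes could be made, of which 8 were called higher by edgeR and 29 had a positive fold change. Over all genes and the 14 classes, 2.13% of 122818 tests were called higher and 3.6% lower, and 49% had a positive fold change. Of the 12 tests with a negative fold change edgeR called 0, with 2 at an unadjusted p under 0.05, and DESeq2 called 0 of the 10 it could test.

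**Figure D1:**
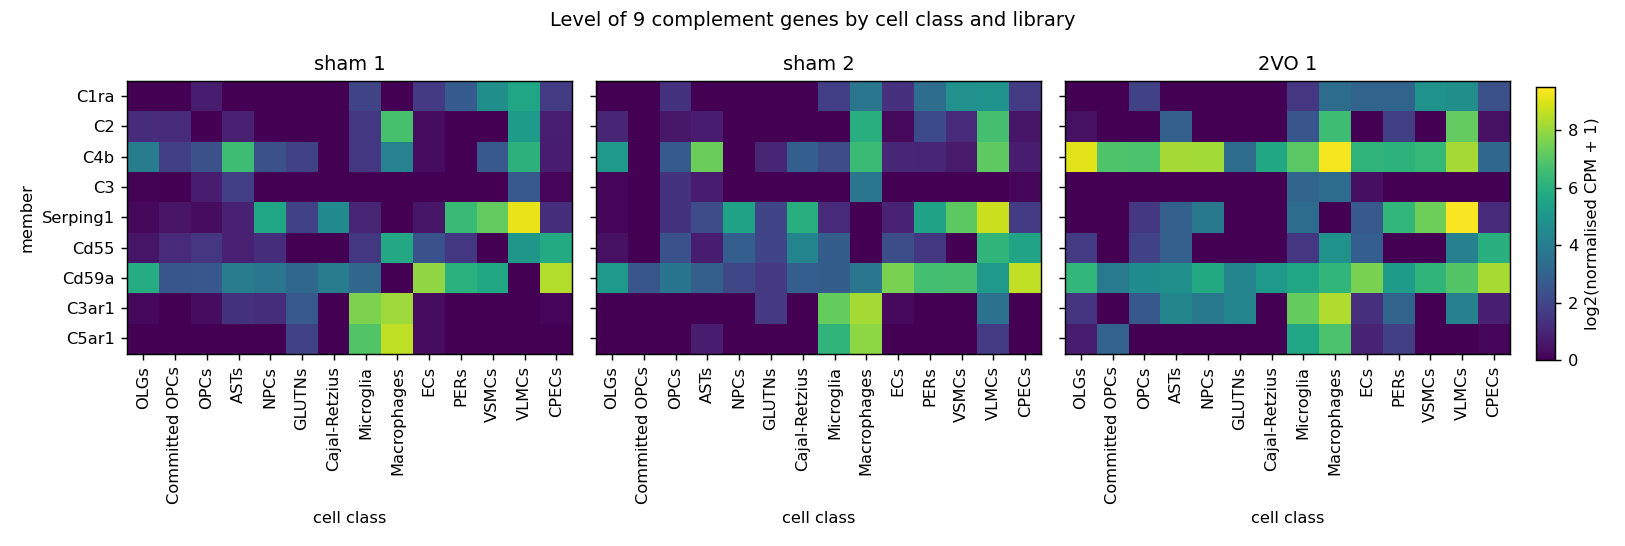
Level of the 9 members (rows) in 14 cell classes (columns) of sham 1, sham 2 and 2VO 1, as log2(normalised CPM + 1), with the colour scale shared by the 3 panels. C4b is the row that brightens across the 2VO panel, while C3ar1 and C5ar1 stay bright in microglia and macrophages and Cd59a in CPECs and ECs.

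C4b (ENSMUSG00000073418) lies on the minus strand at chr17:34728380-34743882 of GRCm38. Its near copy C4a, at chr17:34809092-34823464, has transcripts that were 96.1% identical over 5367 aligned bases and 98% identical in the last 500, and C4a was not among the counted genes. Reads of both copies could therefore stand under C4b, and the values below are uncertain in that sense. Summed over all kept cells, C4b had 487, 676 and 2418 UMIs in the order sham 1, sham 2 and 2VO 1, or 7.53, 17.3 and 136.8 raw CPM. OLGs held 58.8% of all C4b UMIs.

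In OLGs, the myelinating cells, C4b rose strongly. Its UMIs numbered 296 in sham 1, 304 in sham 2 and 1507 in 2VO 1, which corresponded to 15.4, 34 and 533.6 CPM. The 2VO level was 34.6 times that of sham 1 (95% counting interval 30.5 to 39.3) and 15.7 times that of sham 2 (13.9 to 17.8), so the groups did not overlap, while the sham libraries also differed from each other. The log2 fold change was 4.45 ± 0.45 (SE) with an edgeR adjusted p of 0.0448, in a class where 2.14% of 12488 tested genes were called higher. It was 4.01 without sham 1 and 5.15 without sham 2.

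C4b also rose in the precursors of these cells. OPCs had 18 and 10 UMIs in the sham libraries and 175 in the 2VO library, at 4.12, 5.38 and 111.7 CPM. The log2 fold change was 4.61 ± 0.27 with an edgeR adjusted p of 1.27e-05, and this was the smallest p of C4b in any class. OPCs were also the class with the most called genes, with 11.6% of those tested called higher. Committed oligodendrocyte precursors had 6, 0 and 17 UMIs and a log2 fold change of 5.81 ± 0.86, which was not called (edgeR adjusted p = 0.113) and was 8.12 without sham 1. The value of 8.12 is set against 0 UMIs in sham 2. With 3 counts as the limit of that library, the 2VO level was at least 16.2-fold higher. The change was called in 3 of 6 alternative settings that gave an adjusted p. In that class 0% of 7314 genes were called higher by edgeR, although 1433 were at an unadjusted p under 0.05 and 38 were called higher by DESeq2.

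ASTs had the highest C4b level of the 14 classes in both sham libraries. Their CPM were 93.4 and 164 in sham and 295.8 in 2VO, from 115, 232 and 45 UMIs. The 2VO level was above both, by 3.17 times (2.19 to 4.51) and 1.80 times (1.28 to 2.49), yet the log2 fold change of 1.19 ± 0.35 was not called (edgeR adjusted p = 0.186, with 0.0572% of genes called higher). This change was called in 2 of 8 alternative settings. VLMCs, the fibroblasts of the meninges and large vessels, were close to ASTs with 68.5, 140.3 and 297.3 CPM, a log2 fold change of 1.42 ± 0.42 and an edgeR adjusted p of 0.114 (1.2% of genes called higher). The change in VLMCs was called in 2 of 7 alternative settings, and it was 2.11 without sham 2.

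In normalised CPM, the brain's macrophages had the highest C4b level of any class in the 2VO library, with OLGs next at 533.6. In raw CPM macrophages stood at 528.5 there, and the cluster with most 2VO OLGs at 723.3. The other OLG clusters stood at 421.2, 569.3, 544.4 and 0. Macrophages and OLGs are therefore not ordered here. Macrophages had 1, 7 and 71 UMIs, or 17.4, 87.0 and 662.3 CPM. Their log2 fold change of 3.51 ± 0.59 was called (edgeR adjusted p = 0.00113, 3.22% of genes called higher). Without sham 2 it was 5.11 and without sham 1 it was 2.95. These values rested on 19, 23 and 42 cells. In microglia the UMIs were 2, 3 and 143, at 1.94, 3.63 and 133.7 CPM. Their log2 fold change of 5.57 ± 0.38 was not called (edgeR adjusted p = 0.0632), in a class where edgeR called 0% of 10069 genes, with 2466 at an unadjusted p under 0.05 and 31 called higher by DESeq2. It was called in 7 of 7 alternative settings that gave an adjusted p, and the cluster that held most sham microglia had 0 C4b UMIs in its 16 2VO cells.

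Cells of the vessel wall had almost no C4b in sham hippocampi. ECs had 1 and 6 UMIs in the sham libraries and 242 in the 2VO library, at 0.253, 1.05 and 71.6 CPM, with a log2 fold change of 6.58 ± 0.39 (edgeR adjusted p = 0.000388, 1.74% called higher) that reached 7.97 without sham 2. VSMCs had 4, 1 and 43 UMIs, and their log2 fold change of 5.15 ± 0.65 was called (edgeR adjusted p = 0.00207, 0.369% called higher). Leaving out sham 1 gave 6.83 and leaving out sham 2 gave 3.88 in VSMCs. PERs had 0, 2 and 28 UMIs and a log2 fold change of 6.32 ± 0.82 that was not called (edgeR adjusted p = 0.353) and was 8.02 without sham 2. The value of 8.02 is set against 0 UMIs in sham 1. With 3 counts as the limit of that library, the 2VO level was at least 12.0-fold higher. The change in PERs was called in 3 of 7 alternative settings. No gene was called higher in PERs by edgeR (0% of 8616, 1199 at an unadjusted p under 0.05), and DESeq2 called 2.

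The remaining classes had low C4b levels in sham as well. CPECs, which make the cerebrospinal fluid, had 15, 6 and 75 UMIs, or 0.639, 0.700 and 8.27 CPM, and were called at a log2 fold change of 3.63 ± 0.45 (edgeR adjusted p = 0.000394, 1.97% called higher). NPCs had 3, 0 and 22 UMIs, and the 2VO level was 71.2 times that of sham 1 (21.4 to 371) and at least 31.5-fold higher than that of sham 2, with 3 counts taken as the limit of that library. Their log2 fold change of 6.55 ± 0.74 was called (edgeR adjusted p = 0.000112, 2.35% called higher) and was 9.11 without sham 1. The value of 9.11 is set against 0 UMIs in sham 2, so only the lower bound above is measured. GLUTNs (1, 1 and 1 UMIs) and Cajal-Retzius neurons (0, 1 and 3 UMIs) had too few for a test. In these classes 1.14% and 0.585% of the tested genes were called higher. EPNs had 8, 38 and 2 C4b UMIs, or 7.78, 29.1 and 73.4 raw CPM.

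**Figure D2:**
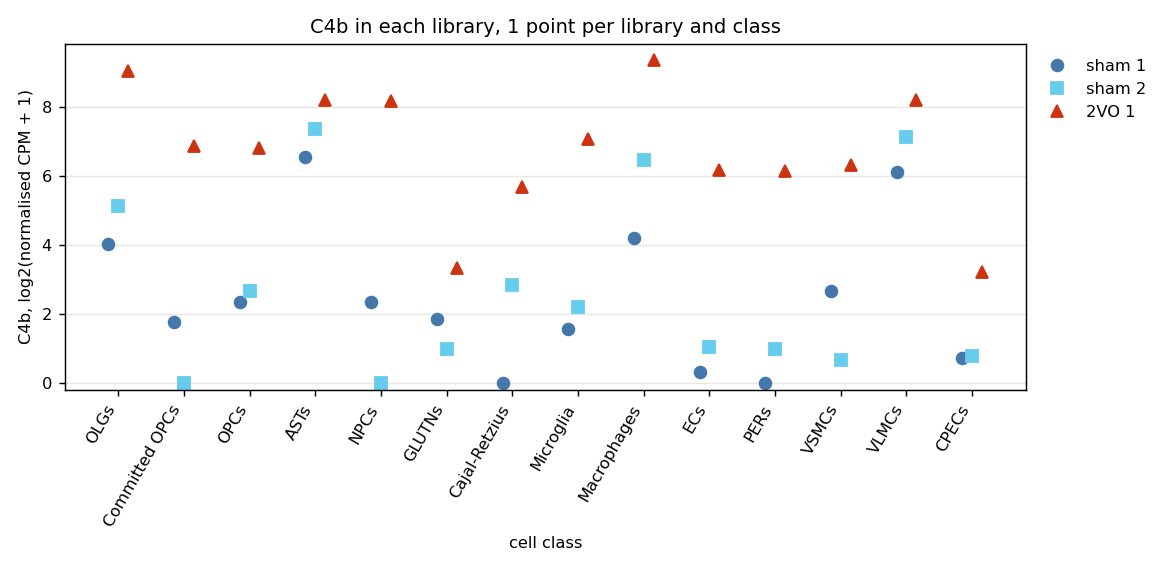
C4b in 14 cell classes as log2(normalised CPM + 1), with 1 point per library and class. The 2VO point lies above both sham points in every class, with the smallest gaps in ASTs and VLMCs.

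The order of the classes by C4b thus differed between the groups. In sham, ASTs, VLMCs, macrophages and OLGs were at or above 15 CPM in both libraries, and the other 10 classes were under 7. In 2VO, macrophages and OLGs came ahead of VLMCs, ASTs and NPCs. VLMCs at 297.3, ASTs at 295.8 and NPCs at 293 CPM could not be ordered from 36, 45 and 22 UMIs. The change itself was compared between classes in 1 fit over all 14, with 13 residual degrees of freedom, although the classes of 1 mouse are not independent mice. OPCs were taken as the reference because C4b had its smallest p there in these same data. C4b changed more in OPCs than in ASTs by 3.57 ± 0.55 on the log2 scale (edgeR adjusted p = 0.00385, with 0.02% of 15004 genes called for this difference). The sham levels were far apart, at 4.12 and 5.38 CPM in OPCs and 93.4 and 164 in ASTs, so this holds for folds only. Against VLMCs the difference was 3.24 ± 0.60 and was not called (edgeR adjusted p = 0.0641, 0% of genes called). The other 9 classes had differences of −2.09 to 1.12 from OPCs, none of them called (1 at an unadjusted p under 0.05, that of ECs). Against OLGs the difference was −0.03 ± 1.99, and this SE is unreliable because it was derived from a difference near 0. The percentages of genes called for these differences were 0.44 for CPECs, 0 for committed oligodendrocyte precursors, 1.03 for ECs, 0.267 for macrophages, 1.06 for microglia, 0 for NPCs, 0.113 for OLGs, 0.353 for PERs and 0.00666 for VSMCs.

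**Figure D3:**
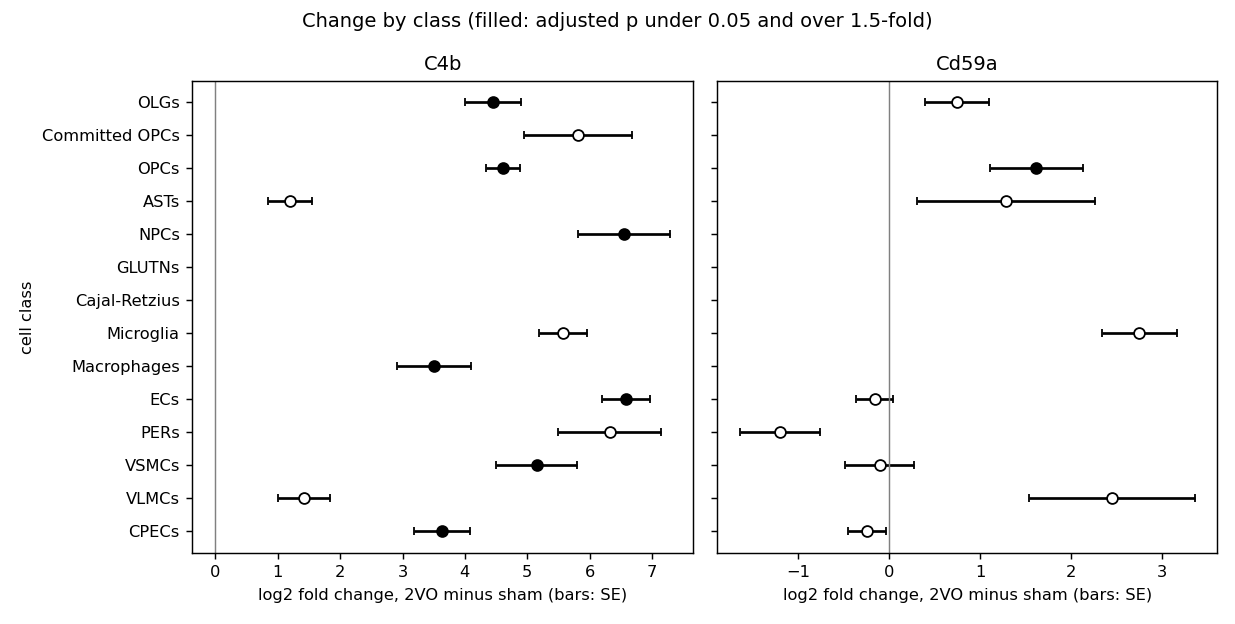
Log2 fold change of C4b (left) and Cd59a (right) between 2VO and sham in each class where the gene was tested, with bars of 1 SE and filled points for called changes. C4b lies above 0 in all 12 tested classes, and Cd59a lies on both sides of 0.

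At the level of single cells, 10.5% of OLGs carried C4b in each sham library and 41.9% (95% exact interval 38.5 to 45.3) in the 2VO library. Because cells of the 2VO library were shallower, each cell was also thinned to 1000 UMIs, after which the shares were 1.57%, 2.19% and 31.4%. The highest count in 1 cell of the 2VO library was 29, and 242 of its 845 OLGs held at least 2 UMIs. In OPCs the shares were 2.07%, 2.34% and 17.4%, and after thinning 0.483%, 0% and 6.41%. For 0 of 296 thinned OPCs of sham 2 the exact interval reached 1.24%. Shares in ASTs were 22.6%, 35.8% and 48.7%, and 7.21%, 10.2% and 23.1% after thinning. VLMCs had C4b in 8 of 32 2VO cells, 1 of which held 17 of the 36 UMIs, and in 0 cells after thinning, with an exact interval up to 10.9%. CPECs, the class with the lowest C4b level in 2VO and a median depth of 7510 UMIs there, gave 2.20%, 1.90% and 6.04%, and after thinning 0.169%, 0.316% and 1.80%. The intervals cover counting error only.

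**Figure D4:**
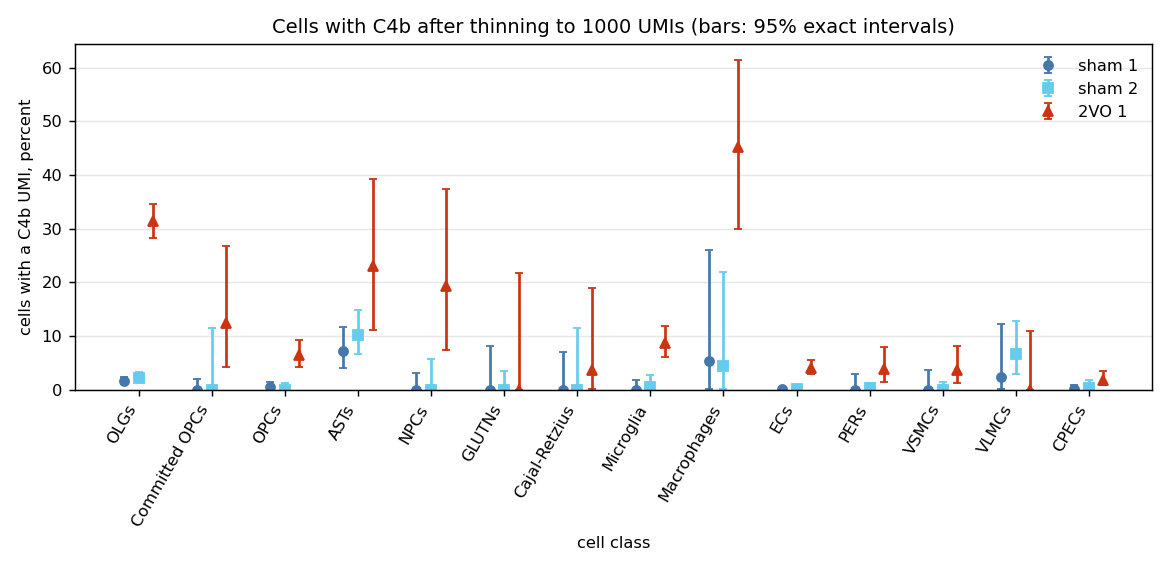
Percent of cells with at least 1 C4b UMI after thinning every cell to 1000 UMIs, by class and library, with 95% exact intervals. OLGs reach 31.4% and macrophages 45.2% in 2VO 1, and VLMCs and GLUTNs have no such cell there.

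C4b-bearing 2VO cells of classes other than OLGs often carried oligodendrocyte RNA as well. The 6 OLG markers summed here (Mog, Mag, Cldn11, Ermn, Mobp and Mbp) were all detected in all 14 classes of the 2VO library. Summed, they reached 363.5, 122.3 and 894.8 raw CPM in ECs of sham 1, sham 2 and 2VO 1, 1930, 277.6 and 2856 in microglia, and 1663, 404.5 and 1328 in OPCs. Levels in the 2VO library were thus above both sham libraries in ECs and microglia and between them in OPCs. Within the 2VO library, ECs with C4b held 2325 raw CPM of OLG markers against 669.4 in ECs without. The same contrast was 5935 against 2009 in microglia, 3075 against 822.9 in OPCs, 4339 against 936.9 in VSMCs, 7093 against 1195 in NPCs, 6903 against 1360 in PERs and 888.4 against 150.6 in CPECs. Cells of the 2VO library without an OLG marker UMI were few in some classes. C4b had 47 UMIs in 381 such ECs, 28 in 134 OPCs and 12 in 91 microglia, at 48.0, 76.0 and 69.8 raw CPM. It had 14 UMIs in 10 macrophages and 10 in 17 ASTs, at 524 and 173.9 raw CPM. There were 3 UMIs in 121 CPECs, 1 in 46 VSMCs and 2 in 48 PERs, at 2.19, 5.67 and 19.97 raw CPM. VLMCs had 2 UMIs in 5 such cells, at 106.5 raw CPM. The 5 NPCs, 9 Cajal-Retzius neurons, 4 GLUTNs and 1 committed oligodendrocyte precursor of this kind held 0. Classes with so few cells were not ordered, and 0 UMIs there do not show that C4b was absent. The cells with C4b were also deeper, with a median of 3081 UMIs against 1947 in ECs. In macrophages (1634 against 1244) and ASTs (682.1 against 547.8) the levels were closer. Committed oligodendrocyte precursors went the other way, with 4152 in cells with C4b and 4789 in cells without. The part of OLG RNA in these results was not tested.

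C4b was also set against the OLG markers as a ratio. In 2VO OLGs there were 43.9 C4b UMIs for 1000 UMIs of the OLG markers, and in barcodes below the minimum of 650 genes there were 46.7. PERs, with 36.8, microglia, with 51.1, and CPECs, with 51.1, were close to these values. VSMCs had 62.5, ECs 84.5, OPCs 93.6, NPCs 117.6, VLMCs 131.4, macrophages 353.2 and ASTs 494.5. The clusters of ECs differed in this respect, since the cluster led by Lcn2, Lrg1, Ackr1 and Vwf, genes of venous endothelium and acute-phase response, had 193.8 and the largest EC cluster 64.7. The cluster led by Lcn2 held 107 of the 242 EC UMIs of C4b, at 170.1 raw CPM and in 25.6% of its 137 2VO cells, with 0 UMIs in both sham libraries.

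**Figure D5:**
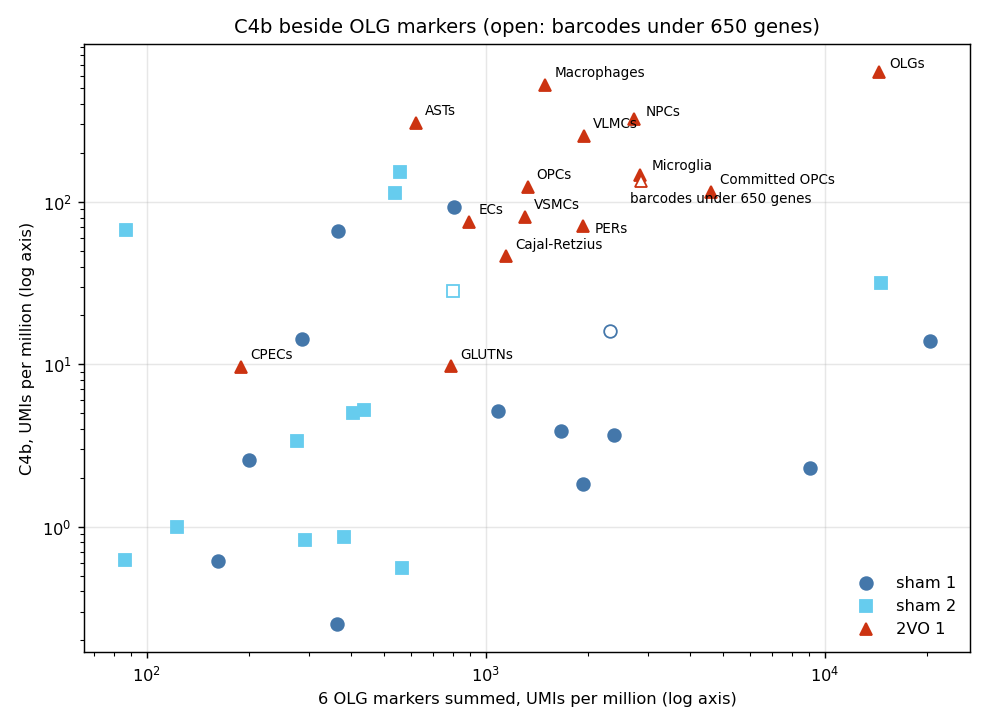
C4b against the sum of 6 OLG markers, both in raw CPM on log axes, with 1 point per class and library and open points for barcodes under 650 genes. Classes and libraries without a C4b UMI cannot be drawn on a log axis, and the 2VO points of macrophages, ASTs and VLMCs stand above those of PERs and microglia at comparable or lower OLG marker levels.

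The groups used different clusters of the same class, so C4b was also followed within them. In the OLG cluster that held most 2VO OLGs, C4b was at 24.2, 37.9 and 723.3 raw CPM in sham 1, sham 2 and 2VO 1. The cluster with most sham OLGs had 15.3, 21.1 and 421.2, and the Klk6 cluster 20.3, 54.5 and 569.3. C4b was thus higher in 2VO within each of these. The deepest OLG cluster, led by Tmem141, Ctps and 9630013A20Rik, was different, with 9, 0 and 0 C4b UMIs in 185, 23 and 16 cells. When OLGs were clustered again, C4b was called higher in each of the 4 subclusters where it was tested, with log2 fold changes of 4.09, 3.69, 4.43 and 3.38, and 1 of them had Cldn5 and Flt1 of endothelium among its leading genes. These tests of subclusters were chosen after seeing the results by class. Sham OPCs fell mostly into 1 cluster (C4b at 3.2 and 4.53 raw CPM, and 50.4 in 65 2VO cells) and 2VO OPCs into another (8.79, 9.39 and 149.3).

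Among the immune cells of the 2VO library, 117 C4b UMIs came from a subcluster led by myelin genes such as Mag and Mal, with 118 2VO cells. The macrophage subcluster (F13a1, Mrc1, Cd163) had 1, 6 and 57 UMIs, or 16.4, 58.9 and 744.1 CPM, and its log2 fold change of 4.11 ± 0.65 was called (edgeR adjusted p = 2.24e-07). The subcluster of Apoc1, Cst7, Itgax and Lpl, genes of reactive microglia, had 0, 1 and 18 UMIs, and the subcluster led by Pde1b and Pag1 had 0, 0 and 6. In the 2VO library the subcluster led by myelin genes held more C4b UMIs than the other 5 together.

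C4b was more frequent in OLGs that carried Serpina3n, a protease inhibitor that is a known marker of reactive glia. Most 2VO OLGs with C4b had no Serpina3n UMI, since 84 had both and 270 had C4b alone. The shares below were not thinned, and 2VO OLGs with C4b were deeper, with a median of 2482 UMIs against 2158. Of 2VO OLGs with a Serpina3n UMI 71.2% had C4b, and of those without 37.1%, while the sham shares were 29.6% against 9.58% and 30.4% against 9.44%. Serpina3n itself had 5.32, 8.61 and 64.8 CPM in OLGs (log2 fold change 3.25 ± 0.32, edgeR adjusted p = 0.0448) and 13, 9.90 and 315.5 CPM in ASTs (4.78 ± 0.33, edgeR adjusted p = 0.000172). From a list of 13 reactive glia genes, 2 of 13 tested were called higher in OLGs, the other being Lcn2 with 0, 0 and 36 UMIs, and 1 of 12 in ASTs, beside 2.14% and 0.0572% of all genes called higher in these classes. Lcn2 also led a cluster of ECs, and EC markers stood at 68.25, 276.3 and 780.7 raw CPM in OLGs. Their part in the Lcn2 call was not tested. The list's median log2 fold change was 0.62 in OLGs and 0.48 in ASTs, beside −0.01 and −0.09 over all tested genes. Gfap, the intermediate filament of reactive ASTs, stood at 899, 778 and 894 CPM in ASTs and did not pass.

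C1ra and C2, members that act before C3, were called in 0 of their 5 edgeR tests, with 1 at an unadjusted p under 0.05, and in 0 of the tests that DESeq2 could make. C1ra (chr6:124512405-124523443, plus strand), a protease of the C1 complex, had its highest levels in VLMCs and VSMCs and its most UMIs, 108 over all libraries, in CPECs. Its level was 25.3, 27.2 and 27.6 CPM in VSMCs, where the groups were nearly level (log2 fold change 0.06 ± 0.45, edgeR adjusted p = 0.958). In ECs it had 8, 9 and 25 UMIs, or 2.02, 1.58 and 7.39 CPM, above both sham libraries but not called (2.04 ± 0.59, edgeR adjusted p = 0.124). CPECs had 2.22, 2.22 and 4.08 CPM and were not called either. VLMCs, with 9, 13 and 3 UMIs, stood at 47.4, 28.1 and 24.8 CPM and had no test. The transcripts of C1ra and its copy C1rb were 98% identical over 2429 bases, so that its counts are uncertain.

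C2 (chr17:34862604-34898265, minus strand) supplies the catalytic part of the C3-cleaving enzyme. Macrophages had 6, 5 and 10 UMIs, or 104.4, 62.2 and 93.3 CPM, with the 2VO value between the sham values. VLMCs had 36.9, 103.6 and 148.7 CPM and a log2 fold change of 0.93 ± 0.52 that was not called (edgeR adjusted p = 0.708) and was 2.00 without sham 2. In OLGs only 25, 9 and 1 UMIs were found (−1.69 ± 1.22, edgeR adjusted p = 0.386). Its highest levels were in macrophages and VLMCs in each library.

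C3 (chr17:57203970-57228136, minus strand) is the component on which all activation routes converge. It had 143 UMIs in 69 kept cells of all libraries and passed the filter on low counts in 0 classes, so no test was made. EPNs held most of them, with 27 UMIs in sham 1, 85 in sham 2 and 2 in the 9 EPNs of 2VO 1, or 26.3, 65.1 and 73.4 raw CPM. The interval of the 2VO value, 8.89 to 265, covered both sham values. In ASTs, where C3 is often used as a mark of reactivity, there were 3, 1 and 0 UMIs, and for 0 of 39 2VO ASTs the exact interval of the share with a UMI reached 9.02%. Microglia had 0, 0 and 8 UMIs in 215, 204 and 409 cells. The 2VO level of 7.48 CPM was at least 4.64-fold higher than that of the sham libraries together, with 3 counts over both as their limit. All 8 came from different cells, and 2 had a UMI after thinning. Macrophages had 0, 1 and 1.

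Among the regulators, Serping1 (chr2:84765387-84775444, minus strand), the inhibitor of C1r and C1s, marked mural cells and fibroblasts. VLMCs had 575, 423 and 694 CPM, VSMCs 149, 136 and 168, and PERs 82.8, 44.0 and 77.0. The 2VO value was above both sham values in VLMCs and VSMCs and between them in PERs, and none was called (edgeR adjusted p = 0.808, 0.685 and 0.712). ECs had 2, 5 and 18 UMIs (log2 fold change 2.84 ± 0.78, edgeR adjusted p = 0.115). NPCs had 48.0, 43.4 and 13.3 CPM, the last from 1 UMI, and Cajal-Retzius neurons had 6, 10 and 0 UMIs. Neither passed, nor did CPECs with 1.36, 2.22 and 1.21 CPM. Macrophages had 0 UMIs in every library, and microglia had 1, 1 and 10, or 0.968, 1.21 and 9.35 CPM, without a test.

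Cd55 (chr1:130439027-130462744, minus strand), which dissociates the C3-cleaving enzyme, had most of its UMIs in CPECs. They had 1281, 389 and 581 UMIs, or 54.6, 45.4 and 64.0 CPM, and a log2 fold change of 0.35 ± 0.21 that was not called (edgeR adjusted p = 0.369). EPNs had 110, 94.2 and 36.7 raw CPM, the last from 1 UMI. VLMCs had 31.6, 73.4 and 16.5 CPM, with the 2VO value, from 2 UMIs, the lowest (−1.76 ± 1.12, edgeR adjusted p = 0.788). In ECs it was 4.30, 3.68 and 6.21 CPM and in OLGs 9, 3 and 6 UMIs, both not called. Its copy Cd55b was 88.4% identical over 1313 aligned bases.

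Cd59a (chr2:104095801-104115354, plus strand) had the most UMIs of the 9 members, 19127 over all libraries. CPECs had 336.8, 381.1 and 303.4 CPM, and 74.7% or more of them carried it in each library. ECs followed with 238.6, 189.1 and 191.3 CPM, where the groups overlapped (log2 fold change −0.16 ± 0.20, edgeR adjusted p = 0.699). Neither class was called, and CPECs had −0.24 ± 0.21. In OPCs Cd59a rose, from 5.04 and 11.9 CPM to 23.6 CPM, on 22, 22 and 37 UMIs. The log2 fold change was 1.62 ± 0.51 (edgeR adjusted p = 0.0320), in the class where 11.6% of all genes were called higher. It was 1.05 without sham 1 and 2.23 without sham 2, and adjusting over all classes together ended the call (edgeR adjusted p = 0.0937).

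Cd59a in OPCs stood beside markers of the classes rich in it. EC markers reached 225, 489 and 1313 raw CPM in OPCs and CPEC markers 1168, 1522 and 3216, both highest in the 2VO library. The 22, 22 and 37 Cd59a UMIs stood beside 1040, 968 and 1849 EC marker UMIs. In OPCs without an EC marker UMI, Cd59a was at 3.85, 5.22 and 6.21 raw CPM, the last from 4 UMIs. The part of EC and CPEC RNA in the change was not tested. Microglia had 8, 5 and 51 UMIs of Cd59a, or 7.75, 6.05 and 47.7 CPM, and a log2 fold change of 2.75 ± 0.41 that was not called (edgeR adjusted p = 0.0774) and that passed in 5 alternative settings. EC markers stood at 396.5, 542.7 and 3014 raw CPM in microglia and CPEC markers at 2268, 961.3 and 5782, and for 1000 EC marker UMIs there were 18.4, 10.4 and 17.3 of Cd59a. Their part was not tested.

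The other classes with Cd59a gave no call. OLGs had 58.7, 33.8 and 77.9 CPM, and PERs 65.5, 101.4 and 37.2 with a log2 fold change of −1.21 ± 0.44 (edgeR adjusted p = 0.353). VLMCs had 0, 16 and 15 UMIs and VSMCs 50.6, 102.1 and 73.7 CPM. No difference of the Cd59a change between OPCs and the 8 other classes was called, the smallest edgeR adjusted p being 0.112 against PERs, although 4 of the 8 had an unadjusted p under 0.05, and DESeq2 was not run on these differences. The copy Cd59b, 87.1% identical over 752 aligned bases, was called lower in CPECs, with 37.6, 43.5 and 23.5 CPM (−0.78 ± 0.22, edgeR adjusted p = 0.0393).

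Of the members that were called, C4b and Cd59a, only Cd59a had an entry in the table of RefSeq promoters. The 250 bases before its start, chr2:104095551-104095800 on the plus strand of GRCm38.p6, are shown for that reason.
Cd59a: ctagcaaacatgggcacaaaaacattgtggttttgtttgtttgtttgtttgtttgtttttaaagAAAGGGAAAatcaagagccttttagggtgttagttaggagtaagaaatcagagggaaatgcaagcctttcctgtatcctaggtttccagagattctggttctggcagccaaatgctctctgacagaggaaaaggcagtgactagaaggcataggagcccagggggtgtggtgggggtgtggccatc
Capitals mark a match to TTTCNNTTT, the core of sites of interferon regulatory factors, on the minus strand from −186 to −178. The same motif is in 9.37% of 32851 promoters of this length, searched on both strands. TTCNNNGAA (STAT sites), TTGCNNAA (C/EBP sites) and CCAAT, found in 7.02%, 9.56% and 33.8% of promoters, had no match in this window.

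The receptors had their highest levels in macrophages and microglia in each library. C3ar1 (chr6:122847138-122856161, minus strand), the receptor of C3a, had 204, 125 and 161 UMIs in microglia, or 197.5, 151.1 and 150.5 CPM. The 2VO value lay just under that of sham 2, and the log2 fold change of −0.21 ± 0.26 was not called (edgeR adjusted p = 0.640). The share of microglia with C3ar1 was 48.8%, 38.2% and 26.2%, and after thinning to 1000 UMIs 14.5%, 12.7% and 16.2%, so the raw shares stood in the order of depth. Macrophages had 278.4, 298.3 and 326.5 CPM (0.17 ± 0.48, edgeR adjusted p = 0.888). Outside these, C3ar1 had at most 8 UMIs in any class and library. It was above both sham libraries in 10 of 14 classes, macrophages among them, and the share of all genes that were so was not counted. OPCs had 1, 0 and 8 UMIs and did not pass the filter on low counts, without which C3ar1 was called higher there (log2 fold change 4.56, edgeR adjusted p = 0.0177). Microglia markers stood at 43.6, 37.9 and 167.6 raw CPM in OPCs, and their part in this was not tested. Markers of microglia stood at 13673, 14488 and 6705 raw CPM within the microglia, without a test, and for 1000 such UMIs there were 13.6, 9.74 and 24.5 of C3ar1.

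C5ar1 (chr7:16246743-16259540, minus strand), the receptor of C5a, had its lowest level in the 2VO library in both immune classes. Microglia had 119.1, 72.5 and 48.6 CPM, from 123, 60 and 52 UMIs, and a log2 fold change of −0.99 ± 0.38 (edgeR adjusted p = 0.205). Macrophages had 382.8, 236.2 and 111.9 CPM, from 22, 19 and 12 UMIs (−1.43 ± 0.57, edgeR adjusted p = 0.259). Neither was called. In microglia the sham libraries differed from each other by more than the 2VO library differed from sham 2. In macrophages this held for the difference in CPM but not for the fold. Without sham 1 the log2 fold change was −0.55 in microglia and −1.03 in macrophages. After thinning, 7.94%, 7.84% and 7.11% of microglia carried C5ar1, from 32.1%, 17.2% and 10.5% before.

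Each member was also compared with all other genes by its pattern of mean level over the 14 classes, as a description over 13396 genes that share the same libraries. C5ar1 was most like Adgre1, the gene of F4/80 (Pearson r = 0.989), then Il1b and Clec4a2. C3ar1 was most like Fcrls (r = 0.970), Dock2 and Blnk. C4b had a less close match, with Selenbp1 (r = 0.846), Plekho2 and Pqlc2. Serping1 was most like C1qtnf7 (r = 0.917), C1ra like Col18a1 (r = 0.912), C2 like Tgfbi (r = 0.908) and Cd55 like Mrln (r = 0.890). For Cd59a the closest gene was Gm10638 (r = 0.935), and for C3, in the few classes with counts, Cd74 (r = 0.920). EPNs, which held most C3 UMIs and also carried Cd55, were not among the 14 classes. Macrophages, the highest of the 14 for C3 in mean sham level, had 0, 1 and 1 UMIs.

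The wider family gives the setting of these 9 genes. Of 46 complement genes 45 were in the count tables, and 174 gene and class pairs were tested, with 27 called higher and 1 lower, beside 2.13% and 3.6% over all genes. Of the 27, 7 were in OPCs, where 11.6% of all genes were called higher. Activating and terminal components made up 20 of the calls in 71 tests, regulators 7 higher and 1 lower in 91, and receptors 0 in 12, where 6 were at an unadjusted p under 0.05 and 0 of 6 tests by DESeq2 passed. The C1q chains, made by microglia and macrophages, supplied 13 of the 20. Microglia markers summed to 37.8, 31.5 and 124 raw CPM in ECs, 18.2, 22.0 and 109.5 in OLGs, 43.6, 37.9 and 167.6 in OPCs, 23.9, 20.9 and 58.7 in CPECs and 87.2, 89.6 and 267.1 in ASTs, highest in the 2VO library in each, and their part in the C1q calls was not tested. C1qb reached 5.82, 5.26 and 84.6 CPM in ECs, and C1qa 2.45, 2.35 and 51.0 in OLGs. Clu was called higher in ECs (1.45 ± 0.22), Vtn, a plasma protein and ligand of integrins, in macrophages and NPCs, and Csmd1 in OPCs (0.64 ± 0.20). In macrophages PER markers stood at 0, 0 and 461.5 raw CPM and EC markers at 28.7, 67.7 and 3387, and their part in the Vtn call was not tested. The second C5a receptor, C5ar2, had 49.4, 39.9 and 23.4 CPM in microglia and was not called (−0.94, edgeR adjusted p = 0.187).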

How the data were processed

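Single cells of the hippocampus were measured by droplet sequencing of transcript 3′ ends, with 1 mouse per library. The deposited counts are UMIs per gene and barcode as the authors made them with Cell Ranger (3.1.0 in the methods) on the mouse GRCm38 genome. The labels give dissociation at 37 °C and the methods at 34 °C. Barcodes with at least 650 genes and genes in at least 20 of these cells were kept. Cells were clustered without complement genes in scanpy 1.11.5 (2000 variable genes, 30 components, 15 neighbours, Leiden resolution 1.0), and clusters were named from fixed markers. The marker list of red blood cells was left out of the naming after the clusters were seen. Scrublet, at a score of 0.25 set after its automatic value had marked 1 cell in the 2VO library, marked 98, 119 and 49 cells, which stayed in the main results.

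UMI counts were summed per library and class, with at least 10 cells, and tested in edgeR 4.0.16 (filterByExpr, TMM, quasi-likelihood). Each SE is the size of the log2 fold change over the square root of the test's F statistic, and is unreliable near 0. The code was tested on simulated data. DESeq2 1.42.0, other size factors, no filter on low counts, a minimum of 200 genes per cell, removal of the marked doublets, resolution 2.0, adjustment over all classes, thinning to 1000 UMIs and leaving out each sham library were the alternatives. A limit of 3 counts was used for genes at 0, and 95% intervals are exact and cover counting error only. The p-values compare these 3 mice. The members and gene lists were chosen with earlier results of these data known. All 9 members were described in every class, with other complement genes that were called or copies of members, a list of reactive glia genes, and for each member the genes most alike over classes among those with at least 200 UMIs. Promoter sequence came from RefSeq, in which 6 of the 9 members had an entry. Of the oligodendrocyte markers, 6 were summed in the comparison with C4b, and values of some other genes of the lists are not reported here.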

Additional observations from a re-analysis of the deposited data

Results flagged for a closer look

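The fold change of C4b differed between classes in 1 comparison. It was larger in OPCs than in ASTs by 3.57 ± 0.55 on the log2 scale, with an edgeR adjusted p of 0.00385 in the fit over all classes, and C4b stood higher in the 2VO library than in both sham libraries in either class. OPCs were the reference because C4b had its smallest p there in these same data. The difference holds for folds only, since the sham levels were far apart, and the classes of 1 mouse are not independent mice. The part of OLG RNA in the OPC value was not tested.

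The other values lie outside the tested classes. In barcodes under 650 genes C4b had 144 UMIs in the 2VO library, or 134.1 raw CPM (113 to 158), against 16.1 and 28.4 raw CPM in the sham libraries. C3ar1 had 80 UMIs there, or 74.5 raw CPM (59.1 to 92.8), against 11.3 and 6.93. In clusters without a name, which held 64 cells of the 2VO library, C4b stood at 36.0 raw CPM from 8 UMIs (15.6 to 71.0), against 3.22 and 0 in sham, and C3ar1 at 31.5 raw CPM from 7 UMIs (12.7 to 65.0), against 0 and 0. These 4 values lay above the upper interval limits of both sham libraries, and no test over libraries was made.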

How the results depend on the processing

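No called change turned its direction. Among uncalled log2 fold changes, thinning turned that of Cd55 (−0.0095, from 0.35) and Cd59a (0.042, from −0.24) in CPECs, Cd59a in VSMCs (0.24, from −0.10) and C3ar1 in microglia (0.36, from −0.21), which was 0.15 at 200 genes. Leaving out sham 1 turned C3ar1 in microglia (0.02) and Cd59a in ECs (0.02), and leaving out sham 2 turned Cd59a in VSMCs (0.57) and Serping1 in PERs (−0.09). Of 8 calls among 41 tests, DESeq2 gave 4 of 31, no filter on low counts 17 of 41 and thinning 5 of 16, and the other 5 settings gave 10 to 12. C4b was called in 7 classes, in 4 of 9 by DESeq2, in 11 without the filter and in 11 with adjustment over all classes. Called changes that no longer passed were C4b in macrophages and VSMCs under DESeq2 (DESeq2 adjusted p = 0.258 and 0.131), C4b in OLGs at resolution 2.0 (edgeR adjusted p = 0.0541) and Cd59a in OPCs with adjustment over all classes (0.0937). DESeq2 gave no adjusted p for C4b in CPECs and Cd59a in OPCs. C5ar1 in microglia was called lower without the filter (−1.05 on the log2 scale, edgeR adjusted p = 0.0135) and with doublets removed (−0.91, 0.0401). Without the filter, Serping1 and C1ra in ECs (edgeR adjusted p = 0.0144 and 0.0215) and Cd59a in VLMCs (0.0319) were called higher. C4b in OPCs and ECs passed in 8 of 8 alternatives, with edgeR or DESeq2 adjusted p up to 6.95e-05 and 0.00227. Thinning moved the C4b shares of OLGs to 1.57%, 2.19% and 31.4%, of OPCs to 0.483%, 0% and 6.41%, of ASTs to 7.21%, 10.2% and 23.1%, and of ECs to 0.0631% in sham 2 and 4.08% in 2VO 1. The C3ar1 level of sham macrophages was 191.7 raw CPM at 200 genes, from 230.6. The causes were not tested. No paired analysis was possible because the sham and 2VO libraries analysed share only replicate number 1. With 1 2VO library, no result has a replicate of the ischaemic group, and depth and group cannot be told apart.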
